A study of Mus musculus with 9 samples.

Results

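Expression of 10 genes of the urea cycle and of ammonia handling was followed in cultured primary mouse hepatocytes that were labelled as treated with DMSO, Bobcat339 or 4-octyl itaconate (4OI). The 10 genes were chosen by symbol, with earlier results of these data known, and all 10 were found among the 56691 genes of the count table. They were Nags, Cps1, Otc, Ass1, Asl, Arg1, Slc25a15, Slc25a13, Glul and Gls2, and all 10 passed the filter on low counts. Ammonia from amino acid breakdown is toxic, and periportal hepatocytes turn it into urea. Carbamoyl phosphate and citrulline are made inside mitochondria, and the later steps run in the cytosol, so that the cycle also needs carriers in the inner mitochondrial membrane. Ammonia that escapes the periportal cells is caught as glutamine by the pericentral hepatocytes around the central vein.

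There were 9 RNA-seq libraries of total RNA, 3 from each group. DMSO is the solvent control, Bobcat339 is an inhibitor of the TET enzymes that oxidise methylated cytosine, and 4OI is an ester of itaconate that enters cells, itaconate being made by activated macrophages. The cells of every group were allowed 4 h to attach and then had fresh medium for 24 h. Strain, age, sex, dose and treatment time were not given in the labels, and the protocol also mentions a NAT10 inhibitor, Remodelin hydrobromide, as used or not used without saying in which libraries. The methods of the study describe hepatocytes taken after partial hepatectomy (PHx) for work with Bobcat339, and no label says whether these libraries came from such livers. In their titles the DMSO libraries bear hepatocyte numbers 1, 2 and 3 and all 4OI libraries bear number 1, which may or may not mean a single preparation. Whether replicates were separate mice or separate dishes is not stated. Each p-value therefore reflects the spread over the libraries at hand, which may be technical.

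Library totals ran from 67434312 to 83902788 deposited counts. An excess of multiples of 4 among low values means that these may not be direct counts of read pairs, and the number of counts worth 1 read pair is not known. Values are given below as CPM, the counts of a gene relative to the total of its library and scaled between libraries by the trimmed mean of M values (TMM), and were tested with edgeR's quasi-likelihood test over 18379 genes. A gene was called changed at a Benjamini-Hochberg adjusted p under 0.05.

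The libraries differed in more than these 10 genes, and in ways that bear on the hepatocyte label. The summed CPM of 14 genes for proteins secreted by hepatocytes (Alb, Trf, Apob and others) ran from 50883 to 54254 in the DMSO libraries, from 48803 to 50661 in the Bobcat339 libraries and from 3247 to 3510 in the 4OI libraries. The summed CPM of 10 macrophage markers ran from 443 to 479 with DMSO, from 86.6 to 121 with Bobcat339 and from 5332 to 5545 with 4OI. That of 8 endothelial markers ran from 102 to 114, from 91.2 to 109 and from 2884 to 3022 in the same order. All 10 macrophage markers were called lower with Bobcat339 and higher with 4OI, and all 8 endothelial markers were called higher with 4OI. The summed CPM of 8 stellate cell and fibroblast markers ran from 26.7 to 27.5 with DMSO, from 21.1 to 23.5 with Bobcat339 and from 206 to 213 with 4OI, and 7 of the 8 were called higher with 4OI. No marker of these 4 lists was at 0 counts through a whole group. The summed CPM of 6 cholangiocyte markers ran from 105 to 119 with DMSO, from 96.6 to 132 with Bobcat339 and from 33.5 to 38.6 with 4OI. Of these 6 markers 1 was called higher and 0 lower with Bobcat339, and 0 higher and 4 lower with 4OI. The summed CPM of 8 intestinal epithelium genes ran from 145 to 168 with DMSO, was 134 in Bobcat339 library 1, 17.1 in library 2 and 14.7 in library 3, and ran from 1.18 to 13.4 with 4OI. Mitochondrial genes took 4.43% to 5.59% of the counts with DMSO, 2.36% to 3.12% with Bobcat339 and 8.37% to 8.98% with 4OI, without overlap between groups. In such bulk samples fewer hepatocytes and less RNA of a gene per hepatocyte cannot be told apart. The part of these differences in the results below was not tested.

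The DMSO libraries give the control levels, in cells kept for 4 h of attachment and 24 h in fresh medium. None of the libraries is of whole liver, so these levels were not set against those of liver. Levels of different genes were compared as CPM per kilobase of exon, using the exon lengths of GENCODE M21 (genome build GRCm38). In DMSO, Ass1, which joins citrulline and aspartate, had the highest level of the 10 at 85.2 ± 9.40 CPM per kilobase (SD, n = 3). Glul followed at 27.6 ± 2.09, Asl at 22.3 ± 2.50 and Slc25a13 at 20.4 ± 1.36 CPM per kilobase. Asl and Slc25a13 overlapped between libraries, as did Nags at 12.4 ± 1.93 with Gls2 at 10.0 ± 0.939 and Gls2 with Cps1 at 8.75 ± 0.549 CPM per kilobase. The lowest levels were those of Otc at 6.77 ± 1.05, Slc25a15 at 6.59 ± 0.303 and Arg1 at 5.35 ± 0.515 CPM per kilobase, of which the first pair overlapped. Ass1 stayed first and Arg1 last with Bobcat339, at 60.7 ± 8.14 and 3.30 ± 0.420 CPM per kilobase. With 4OI the order was different, and Glul stood first at 213 ± 3.80 CPM per kilobase. Ass1 was next at 11.8 ± 1.09, Asl was at 9.76 ± 0.474 and Arg1 came after them at 5.31 ± 0.764 CPM per kilobase, and no pair of neighbours among these overlapped. Gls2 at 0.546 ± 0.269 and Nags at 0.507 ± 0.125 CPM per kilobase were lowest with 4OI and overlapped.

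**Figure D1:**
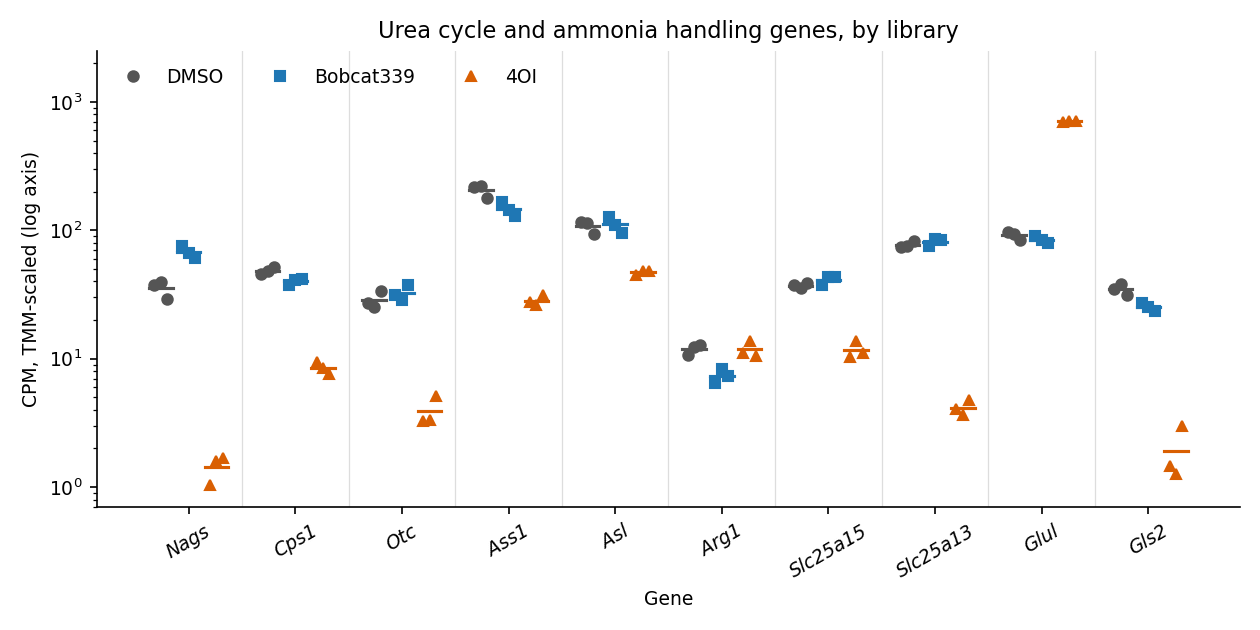
Level of each of the 10 genes in each library as TMM-scaled CPM on a log axis, with 1 point for each library and a bar at the mean of the 3 libraries of a group. Glul was near 707 CPM in the 4OI libraries against 91.6 CPM with DMSO, most other genes were lower with 4OI, and Arg1 was at a like level in the DMSO and 4OI libraries.

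The comparison of Bobcat339 with DMSO sets a TET inhibitor against its solvent in these hepatocyte cultures. Of the 10 genes 3 were called. Nags rose, while Ass1 and Arg1 fell. The count of 1 gene called higher stands against 11.6% of all genes tested called higher in this comparison, and the 2 called lower against 9.06% of all genes called lower. The share of the 10 genes was thus near that of all genes in both directions. Their median log2 fold change was −0.04 and that of all genes tested was −0.01. Of all the genes called, 56.2% were higher with Bobcat339 under TMM scaling and 46.1% under scaling by relative log expression (RLE).

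The comparison of 4OI with DMSO gave a much larger change. Of the 10 genes 8 fell, Glul rose and Arg1 was not called. These stand against 30.4% of all genes called lower and 33.3% called higher in this comparison. The median log2 fold change of the 10 genes was −2.69, and that of all genes was 0.08. In the direct comparison of 4OI with Bobcat339, 8 of the 10 genes were lower with 4OI, where 31.3% of all genes were called lower. Glul and Arg1 were higher with 4OI, where 30.9% of all genes were called higher. The comparisons share libraries and are not independent of each other.

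**Figure D2:**
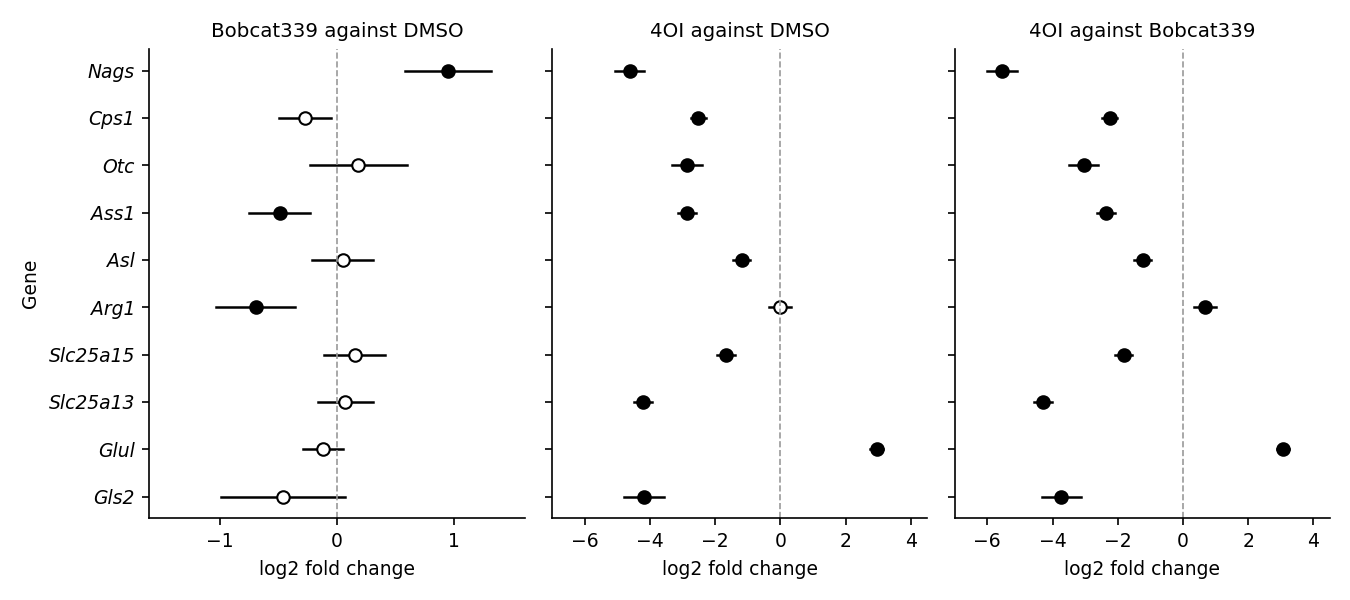
Log2 fold change of each of the 10 genes in the 3 comparisons, with its 95% confidence interval from the edgeR fit. Filled points were called at an adjusted p under 0.05 and open points were not, and the axis of the Bobcat339 panel covers a narrower range than the others. With Bobcat339 only Nags, Ass1 and Arg1 are filled, and with 4OI against DMSO only Arg1 is open.

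Nags (ENSMUSG00000048217, chr11:102145513-102149477) encodes N-acetylglutamate synthase, which makes the activator that carbamoyl phosphate synthetase cannot work without. Its level was 37.3, 39.5 and 29.1 CPM in DMSO libraries 1, 2 and 3. It was 75.7, 66.7 and 61.3 CPM in Bobcat339 libraries 1, 2 and 3, and 1.03, 1.598 and 1.69 CPM in 4OI libraries 1, 2 and 3. The 3 groups did not overlap, and Nags was above DMSO in one treatment and below it in the other. Nags rose 1.92-fold with Bobcat339 (log2 0.94, SE 0.17, edgeR adjusted p = 0.00255). It fell 24.5-fold with 4OI (log2 −4.61, SE 0.20, adjusted p = 7.01e-09), and the 4OI libraries were 47.1-fold below the Bobcat339 libraries (adjusted p = 2.04e-09). The 4OI values rest on 82 to 148 deposited counts a library.

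Cps1 (ENSMUSG00000025991, chr1:67123026-67231259) encodes carbamoyl phosphate synthetase 1, the mitochondrial enzyme that commits ammonia to the cycle. Its level was 45.9, 48.0 and 51.9 CPM with DMSO, 37.5, 41.4 and 41.6 CPM with Bobcat339, and 9.40, 8.43 and 7.62 CPM with 4OI. Every Bobcat339 library was below every DMSO library, and every 4OI library was far below both. The difference with Bobcat339 was −0.28 on the log2 scale (95% interval −0.50 to −0.05, edgeR adjusted p = 0.0797) and was not called. Under RLE scaling it was called at −0.34 (adjusted p = 0.0311), and DESeq2 also called it at −0.32 (adjusted p = 0.00945). With 4OI Cps1 fell 5.73-fold (log2 −2.52, SE 0.11, adjusted p = 5.77e-09).

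Otc (ENSMUSG00000031173, chrX:10252305-10321024) encodes ornithine transcarbamylase, which forms citrulline in the mitochondrion. It was at 27.1, 25.2 and 33.7 CPM with DMSO and at 31.5, 28.4 and 37.6 CPM with Bobcat339. These groups overlapped, and the log2 difference was 0.18 (95% interval −0.23 to 0.59, edgeR adjusted p = 0.576). The 4OI libraries held 3.29, 3.32 and 5.16 CPM, all well below the other groups. Otc fell 7.30-fold with 4OI (log2 −2.87, SE 0.20, adjusted p = 3.78e-07).

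Ass1 (ENSMUSG00000076441, chr2:31470207-31520672) encodes argininosuccinate synthase, the first cytosolic enzyme of the cycle. It was at 217, 220 and 180 CPM with DMSO, 167, 144 and 128 CPM with Bobcat339, and 27.7, 26.2 and 31.3 CPM with 4OI. The groups did not overlap, with Bobcat339 between the others. Ass1 fell 1.40-fold with Bobcat339 (log2 −0.49, SE 0.12, edgeR adjusted p = 0.0147). This call was lost when any of 4 libraries was left out, with an adjusted p of 0.0649 without DMSO 1, 0.0638 without DMSO 2, 0.0602 without Bobcat339 2 and 0.0518 without Bobcat339 3. Ass1 fell 7.25-fold with 4OI (log2 −2.86, SE 0.13, adjusted p = 8.73e-09).

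Asl (ENSMUSG00000025533, chr5:130011258-130029247) encodes argininosuccinate lyase, which splits off arginine and fumarate. Its level was 115, 114 and 93.6 CPM with DMSO, 128, 110 and 95.6 CPM with Bobcat339, and 44.5, 48.4 and 48.6 CPM with 4OI. The DMSO and Bobcat339 libraries overlapped, and their log2 difference was 0.05 (95% interval −0.21 to 0.30, edgeR adjusted p = 0.846). Asl fell 2.28-fold with 4OI (log2 −1.19, SE 0.12, adjusted p = 6.01e-06), the smallest of the 8 falls.

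Arg1 (ENSMUSG00000019987, chr10:24915221-24927484) encodes arginase 1, which releases urea and ornithine from arginine. Macrophages can also express Arg1. Its level was 10.6, 12.3 and 12.8 CPM with DMSO, 6.46, 8.33 and 7.29 CPM with Bobcat339, and 11.2, 13.8 and 10.6 CPM with 4OI. The Bobcat339 libraries lay below all others, and the DMSO and 4OI libraries overlapped. Arg1 fell 1.62-fold with Bobcat339 (log2 −0.70, SE 0.15, edgeR adjusted p = 0.00888). With 4OI the log2 difference from DMSO was −0.01 (95% interval −0.35 to 0.32, adjusted p = 0.956), and its sign turned between alternatives of the processing, from −0.14 to 0.08. Arg1 was 1.61-fold higher with 4OI than with Bobcat339 (log2 0.68, SE 0.15, adjusted p = 0.00244). The macrophage markers moved beside these values, with a median log2 fold change of −2.30 with Bobcat339 and 3.37 with 4OI against DMSO, and their part in the Arg1 values was not tested.

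The ornithine carrier and the aspartate-glutamate carrier connect the mitochondrial and cytosolic parts of the cycle. Slc25a15 (ENSMUSG00000031482, chr8:22375551-22398597) encodes the ornithine carrier, and its level was 37.2, 35.3 and 38.7 CPM with DMSO, 37.3, 43.4 and 42.9 CPM with Bobcat339, and 10.3, 13.7 and 11.1 CPM with 4OI. The DMSO and Bobcat339 libraries overlapped (log2 0.15, 95% interval −0.11 to 0.41, edgeR adjusted p = 0.431). Slc25a15 fell 3.18-fold with 4OI (log2 −1.67, SE 0.12, adjusted p = 4.62e-07). Slc25a13 (ENSMUSG00000015112, chr6:6041218-6217173) encodes citrin, which exports the aspartate that Ass1 uses. It was at 73.6, 75.2 and 83.2 CPM with DMSO, 75.2, 85.0 and 83.6 CPM with Bobcat339, and 4.05, 3.64 and 4.81 CPM with 4OI. Its DMSO and Bobcat339 libraries also overlapped (log2 0.07, 95% interval −0.16 to 0.30, adjusted p = 0.711). It fell 18.5-fold with 4OI (log2 −4.21, SE 0.12, adjusted p = 4.35e-10), which was in value the largest fall of the 10 genes after that of Nags.

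Glul and Gls2 stand at the opposite ends of glutamine turnover. Glul (ENSMUSG00000026473, chr1:153899944-153909723) encodes glutamine synthetase, which in the liver is known from the pericentral hepatocytes and is also expressed by other cell types, macrophages and endothelial cells among them. Its level was 96.8, 94.2 and 83.7 CPM with DMSO, 89.7, 83.7 and 79.2 CPM with Bobcat339, and 693, 714 and 714 CPM with 4OI. The DMSO and Bobcat339 libraries overlapped (log2 −0.12, 95% interval −0.29 to 0.05, edgeR adjusted p = 0.339). Glul rose 7.72-fold with 4OI (log2 2.95, SE 0.08, adjusted p = 3.99e-10), and it was 8.39-fold higher with 4OI than with Bobcat339 (adjusted p = 2.58e-10). The macrophage, endothelial, and stellate cell and fibroblast markers were higher in the same 4OI libraries, with a median log2 fold change of 3.37, 4.41 and 2.41 (all called but 1 of the last list), and their part in the rise of Glul was not tested.

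Gls2 (ENSMUSG00000044005, chr10:128194457-128210004) encodes the liver glutaminase, which frees ammonia from glutamine in periportal mitochondria. It was at 34.8, 37.97 and 31.4 CPM with DMSO, 27.1, 25.2 and 23.6 CPM with Bobcat339, and 1.46, 1.26 and 2.97 CPM with 4OI. Every Bobcat339 library was below every DMSO library, yet the difference of −0.46 on the log2 scale was not called (95% interval −0.99 to 0.07, edgeR adjusted p = 0.224). It was called at an adjusted p of 0.0201 when the fit held only the 6 DMSO and Bobcat339 libraries, and at 0.0174 without 4OI library 3, which had the highest of the 4OI values. Gls2 fell 18.2-fold with 4OI (log2 −4.18, SE 0.28, adjusted p = 2.30e-07). The 4OI values rest on 94 to 261 deposited counts a library.

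The 10 genes together took 0.0670% ± 0.00335 of the counts in the DMSO libraries, 0.0614% ± 0.00319 in the Bobcat339 libraries and 0.0867% ± 0.00168 in the 4OI libraries (SD, n = 3). Without Glul the other 9 took 0.0579% ± 0.00270, 0.0533% ± 0.00274 and 0.0125% ± 0.000549. The rise of the sum with 4OI was thus that of Glul, which alone took 0.0742% ± 0.00117 of the counts with 4OI against 0.00904% ± 0.000678 with DMSO. In a two-sided exact permutation test of the sum over the 10 genes p was 0.1 for 4OI against either other group and 0.2 for Bobcat339 against DMSO. With 3 libraries a group 0.1 is the smallest p that this test can give.

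The promoters of 2 genes that moved in opposite directions with 4OI, Glul and Nags, and of the mitochondrial enzyme gene Otc are shown so that the sequences before these starts can be set beside each other. Each is the 250 bases before the gene start in RefSeq (GRCm38.p6), 5′ to 3′ on the + strand, which is the strand of all 3 genes. Capitals mark AGGTCA, the core that HNF4 and other nuclear receptors bind, or its reverse complement TGACCT. The windows are chr1:153899679-153899928 for Glul, chr11:102145263-102145512 for Nags and chrX:10252055-10252304 for Otc.
Glul: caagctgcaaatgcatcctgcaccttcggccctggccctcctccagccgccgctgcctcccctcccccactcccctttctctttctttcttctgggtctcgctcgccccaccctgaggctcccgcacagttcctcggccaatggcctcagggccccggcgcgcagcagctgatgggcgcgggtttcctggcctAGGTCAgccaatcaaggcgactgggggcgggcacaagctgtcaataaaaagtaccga
Nags: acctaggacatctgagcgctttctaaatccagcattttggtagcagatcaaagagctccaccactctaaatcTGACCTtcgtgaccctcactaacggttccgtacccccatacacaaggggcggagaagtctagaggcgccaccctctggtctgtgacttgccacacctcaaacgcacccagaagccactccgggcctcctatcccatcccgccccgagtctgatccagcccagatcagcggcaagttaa
Otc: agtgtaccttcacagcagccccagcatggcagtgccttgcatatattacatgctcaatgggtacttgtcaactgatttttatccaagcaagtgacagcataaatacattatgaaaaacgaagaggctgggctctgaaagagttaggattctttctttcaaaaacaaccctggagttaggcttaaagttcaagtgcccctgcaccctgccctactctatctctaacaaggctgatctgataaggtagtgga
In Glul the match begins 57 bases before the start and in Nags 178 bases before it, and Otc has no match. RefSeq promoters were found for 6 of the 10 genes (Nags, Otc, Ass1, Slc25a15, Slc25a13 and Glul), and 2 of these 6 held AGGTCA on either strand, where 14.0% of all 32851 promoters did. The other 6 motifs searched on both strands were TTGCNNAA, found in 9.56% of all promoters, and TTGCNCAA, each match of which is also a match of the former, in 2.61%. They also included CAAAGTCCA in 0.384%, TGACGTCA in 1.55%, TGACNNNGC in 10.2% and CTTTGAA in 4.46% of all promoters. None of these letters stood in the windows of the 6 genes. A match describes the sequence and is not evidence of a bound site.

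Since all 14 hepatocyte secreted protein genes also fell with 4OI, by a mean of 3.75 on the log2 scale over the list, each of the 10 genes was set against the mean log2 CPM of that list in the same library. On this relative scale 7 of the 10 genes were higher with 4OI than with DMSO and 3 were lower. Glul was 104-fold and Arg1 13.3-fold higher relative to the list. Asl was 5.92-fold, Slc25a15 4.21-fold, Cps1 2.34-fold, Ass1 1.86-fold and Otc 1.81-fold higher. These 5 genes thus fell with 4OI, but by less than the mean of the list. The log2 fold changes of the 14 genes ran from −5.96 to −2.58. Those of Ass1 (−2.86) and Otc (−2.87) lay within this range. Nags was 1.85-fold and Slc25a13 1.39-fold lower relative to the list. In these 9 genes the DMSO and 4OI libraries did not overlap, and each gave p = 0.1 in a two-sided exact permutation test, the smallest possible, or 0.136 adjusted over the 30 relative levels compared. How many of all genes tested would also not overlap on this scale was not counted, so the separation cannot be called particular to these genes. For Gls2 the relative level was 1.46-fold lower with 4OI, the groups overlapped, and the exact permutation p was 0.4. Set against Alb alone, Nags and Slc25a13 also overlapped between the groups (log2 −0.49 and −0.08, exact permutation p = 0.2 and 0.4), so that their lower relative level depends on the reference, while the 7 higher genes did not overlap with any of the 3 references.

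With Bobcat339 0 of the 14 secreted protein genes were called by edgeR (1 at an unadjusted p under 0.05) and 1 by DESeq2, which was Ahsg in both counts, and the median log2 fold change of the list was −0.09. Relative to them Nags was 2.06-fold higher, and Arg1 was 1.53-fold, Ass1 1.32-fold and Gls2 1.29-fold lower. In these 4 genes the Bobcat339 and DMSO libraries did not overlap (p = 0.1, exact permutation test, 0.136 adjusted). Here too the share of all genes without overlap was not counted. Cps1 was 1.14-fold lower, its groups overlapped on this scale, and p was 0.2 in the exact permutation test. These separations partly depend on the reference. Set against Alb alone, Ass1 and Gls2 overlapped (p = 0.2 each, exact permutation test) and Cps1 did not (p = 0.1), nor did Cps1 against the median of the list (p = 0.1), while Nags and Arg1 stayed apart with all 3 references.

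Ratios of 2 genes within a library do not depend on the scaling between libraries. The ratio of Glul to Gls2, which make and break glutamine, was 2.78, 2.48 and 2.66 with DMSO, 3.32, 3.33 and 3.36 with Bobcat339, and 475, 566 and 240 with 4OI. It was 1.26-fold higher with Bobcat339 and 152-fold higher with 4OI. The ratio of Cps1 to Glul, which in the liver belong to the periportal and pericentral routes of ammonia removal, was 0.474, 0.509 and 0.621 with DMSO. It was 0.418, 0.494 and 0.525 with Bobcat339. These overlapped, with p = 0.5 in the exact permutation test. With 4OI the ratio was 0.0136, 0.0118 and 0.0107, which was 44.4-fold lower than with DMSO. In the same comparison 6 of 9 pericentral markers fell, and the macrophage and endothelial markers rose (median log2 fold change 3.37 and 4.41). Their part in the ratio was not tested, so it is given as a ratio of 2 genes and not of 2 zones. The ratio of Arg1 to Cps1 was 0.231, 0.257 and 0.247 with DMSO, 0.172, 0.201 and 0.175 with Bobcat339, and 1.19, 1.63 and 1.39 with 4OI. It was 1.34-fold lower with Bobcat339 and 5.68-fold higher with 4OI. Apart from Cps1 to Glul with Bobcat339, each of the 9 comparisons of these ratios gave p = 0.1 in a two-sided exact permutation test (0.113 adjusted over the 9).

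For 2 of the 10 genes, Arg1 and Slc25a13, another gene of the same activity is expressed mainly outside hepatocytes or widely, and these pairs were chosen after their values were seen, so that they are given without a test. Arg2, the mitochondrial arginase, rose by 1.15 with Bobcat339 and by 3.08 with 4OI on the log2 scale (edgeR adjusted p = 0.000552 and 3.39e-08). The ratio of Arg2 to Arg1 was 0.383, 0.417 and 0.250 with DMSO, 1.38, 1.09 and 1.31 with Bobcat339, and 3.24, 2.61 and 3.11 with 4OI. Slc25a12, the aspartate-glutamate carrier of muscle and brain, rose by 0.62 with 4OI on the log2 scale (adjusted p = 7.91e-05), and its difference with Bobcat339 was −0.12 (adjusted p = 0.394). The ratio of Slc25a12 to Slc25a13 was 0.401, 0.388 and 0.338 with DMSO, 0.367, 0.331 and 0.290 with Bobcat339, and 11.2, 11.9 and 9.39 with 4OI. In both pairs the 4OI libraries lay above all others, and in Arg2 to Arg1 the Bobcat339 libraries lay between 4OI and DMSO.

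**Figure D3:**
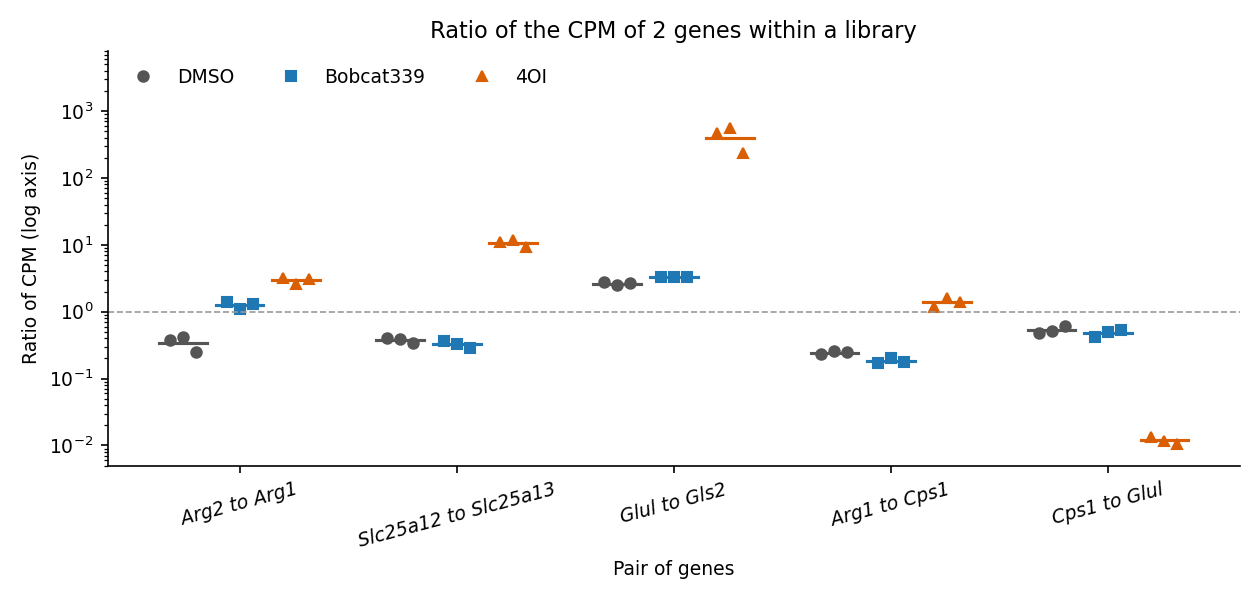
Ratio of the CPM of 2 genes in each library on a log axis, with 1 point for each library and a bar at the geometric mean of the 3 libraries of a group. In 4 of the pairs the 4OI libraries sit above all others, and in Cps1 to Glul they sit below, between 0.0107 and 0.0136.

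A wider list of 27 genes next to the cycle held enzymes, carriers and transporters of nitrogen. Of the 24 that could be tested, 8 were called higher and 4 lower with Bobcat339, and 8 higher and 16 lower with 4OI. Their median log2 fold changes were 0.02 and −1.58. Among all genes tested, 11.6% were called higher and 9.06% lower with Bobcat339, and 33.3% higher and 30.4% lower with 4OI. Slc38a5 and Slc14a1 were at 0 counts in all 9 libraries and Slc25a2 was too low to be tested. Among the enzymes, Glud1, the glutamate dehydrogenase that frees ammonia in mitochondria, fell from 881 to 937 CPM with DMSO to 540 to 562 CPM with Bobcat339 and 291 to 308 CPM with 4OI. Its log2 fold changes were −0.72 (edgeR adjusted p = 3.04e-05) and −1.61 (adjusted p = 3.51e-09). Gpt2, the mitochondrial alanine aminotransferase, fell with both treatments (log2 −0.65 and −2.35), as did Sirt5 (log2 −0.79 and −1.55), a deacylase known to act on Cps1. Odc1, the first enzyme of polyamine synthesis from ornithine, rose with both (log2 0.28 and 1.71), and so did Oat, the ornithine aminotransferase (log2 0.30 and 0.77). The Bobcat339 calls of Odc1 and Oat, at adjusted p of 0.0295 and 0.0304, were lost without any of DMSO 1, 2 and 3 and Bobcat339 1 and 2, and that of Odc1 also without 4OI 1 or 2, at adjusted p of up to 0.0857 for Odc1 and 0.0936 for Oat. Got1, the cytosolic aspartate aminotransferase, rose with Bobcat339 (log2 0.44) and fell with 4OI (log2 −0.66).

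The transporters of the same list fell into sets of different direction. Slc38a2, which carries neutral amino acids, rose with both treatments (log2 1.29 and 2.34), and Slc1a5, a glutamine carrier, was at 4.81 to 5.83 CPM with DMSO and 73.4 to 83.0 CPM with 4OI, a rise of 3.89 on the log2 scale (edgeR adjusted p = 5.51e-10). Slc1a5 was not called with Bobcat339 (log2 −0.22). Slc38a4, a carrier of neutral amino acids abundant in liver, fell with Bobcat339 (log2 −0.41) and with 4OI (log2 −5.18, adjusted p = 1.79e-10). Aqp9, a channel for glycerol and urea, and Slc7a2, a carrier of arginine and other cationic amino acids, had the directions of Nags. Aqp9 rose with Bobcat339 (log2 0.78) and fell with 4OI (log2 −4.39), and Slc7a2 rose with Bobcat339 (log2 0.49) and fell with 4OI (log2 −2.43). Slc1a2, the glutamate carrier of pericentral cells, fell with 4OI (log2 −2.50) and showed a difference of −0.02 with Bobcat339 that was not called. The Bobcat339 call of Slc7a2 was lost without DMSO 1, DMSO 2 or Bobcat339 3 (adjusted p = 0.0827, 0.0649 and 0.0534), and that of Slc38a4 without DMSO 1, DMSO 2 or Bobcat339 2 (0.0575, 0.0581 and 0.0627).

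Of 14 tested genes that release ammonia from amino acids or take up its nitrogen in other products, 1 was higher and 3 lower with Bobcat339, and 1 was higher and 12 lower with 4OI. The median log2 fold changes were −0.23 and −1.45. These counts stand against 11.6% of all genes higher and 9.06% lower with Bobcat339, and 33.3% and 30.4% with 4OI. Asns, the asparagine synthetase, was the gene that rose, with Bobcat339 (log2 0.49, edgeR adjusted p = 0.00163) and with 4OI (log2 0.86, adjusted p = 3.15e-06). Sds, the serine dehydratase, Aspg, an asparaginase, and Maob, a monoamine oxidase, fell with Bobcat339 (log2 −1.83, −0.75 and −0.52). The call of Sds was lost without any 1 of the DMSO and Bobcat339 libraries (adjusted p from 0.0533 to 0.132), that of Maob without any of these but Bobcat339 3 (0.0550 to 0.113), and that of Aspg without DMSO 1 (0.0503). With 4OI Cth, the cystathionine gamma-lyase, Gldc, the glycine decarboxylase, Maob, and Ctps, the CTP synthase, fell (log2 −3.57, −6.99, −4.64 and −1.43).

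Among 10 transcriptional and hormonal regulators of liver metabolism, 3 were higher and 1 lower with Bobcat339, and 4 were higher and 6 lower with 4OI. The median log2 fold changes were 0.03 and −2.15. Over all genes the shares were 11.6% higher and 9.06% lower with Bobcat339, and 33.3% higher and 30.4% lower with 4OI. Hnf4a, the nuclear receptor that keeps the hepatocyte programme, was at 150 to 154 CPM with DMSO, 75.9 to 82.7 CPM with Bobcat339 and 1.95 to 3.38 CPM with 4OI. It fell in both comparisons (log2 −0.92, edgeR adjusted p = 0.00124, and −5.88, adjusted p = 5.67e-10). Ppargc1a, a coactivator of the fasting response, rose with Bobcat339 (log2 2.00) and fell with 4OI (log2 −3.51), again the directions of Nags. Cebpb and Nr3c1, the glucocorticoid receptor, rose with both (log2 0.81 and 1.12 for Cebpb, 0.63 and 1.06 for Nr3c1), and the Bobcat339 call of Nr3c1 was lost without DMSO 1 or 2 (adjusted p = 0.0579 and 0.0542). Cebpa was not called with Bobcat339 (log2 −0.09) and rose with 4OI (log2 0.72). Creb3l3 and the glucagon receptor Gcgr fell with 4OI (log2 −3.59 and −3.61).

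Markers of liver zones were counted beside the 10 genes because the urea cycle is periportal and Glul pericentral. The counts of both zones stand against 11.6% of all genes higher and 9.06% lower with Bobcat339, and 33.3% and 30.4% with 4OI. Of 8 periportal markers 1 was higher and 4 lower with Bobcat339, and 1 was higher and 6 lower with 4OI. Their median log2 fold changes were −0.80 and −3.21. With Bobcat339 Pck1, the gluconeogenic carboxykinase, Ctsc, Cdh1 and Cyp2f2 fell (log2 −2.82, −1.15, −1.04 and −0.57). All 10 macrophage markers also fell with Bobcat339, and their part in the fall of Ctsc was not tested. The call of Cyp2f2 was lost without DMSO 1, DMSO 2, Bobcat339 2 or Bobcat339 3 (adjusted p from 0.0622 to 0.0927). With 4OI Ctsc, a cathepsin that macrophages also express, rose (log2 2.07), while Cdh1 and Hsd17b13 fell (log2 −5.07 and −3.64). Of 9 pericentral markers 0 were called with Bobcat339 in edgeR's test and 0 by DESeq2, with 2 at an unadjusted p under 0.05. With 4OI 1 was higher and 6 were lower, at a median of −3.82, or −3.68 when Lgr5, which was at 0 counts in the 4OI libraries, was set to the bound that a floor of 3 counts a library gives. The gene that rose was Nkd1, an inhibitor of Wnt signalling (log2 3.64, edgeR adjusted p = 9.58e-05), from 0.119 to 0.539 CPM with DMSO to 3.17 to 4.09 CPM with 4OI, and it was named after its value was seen. The pericentral enzymes Cyp2e1 and Cyp1a2 fell (log2 −4.12 and −4.84), and so did Rgn and Cyp27a1 (log2 −3.07 and −3.82). Glul rose with 4OI in libraries where 6 of these 9 markers fell. Of the 14 secreted protein genes all fell with 4OI. The log2 fold changes of Alb, Apoh, Ambp and F2 were −4.14, −3.67, −4.43 and −4.12, and that of Trf (transferrin) was −4.07.

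**Figure D4:**
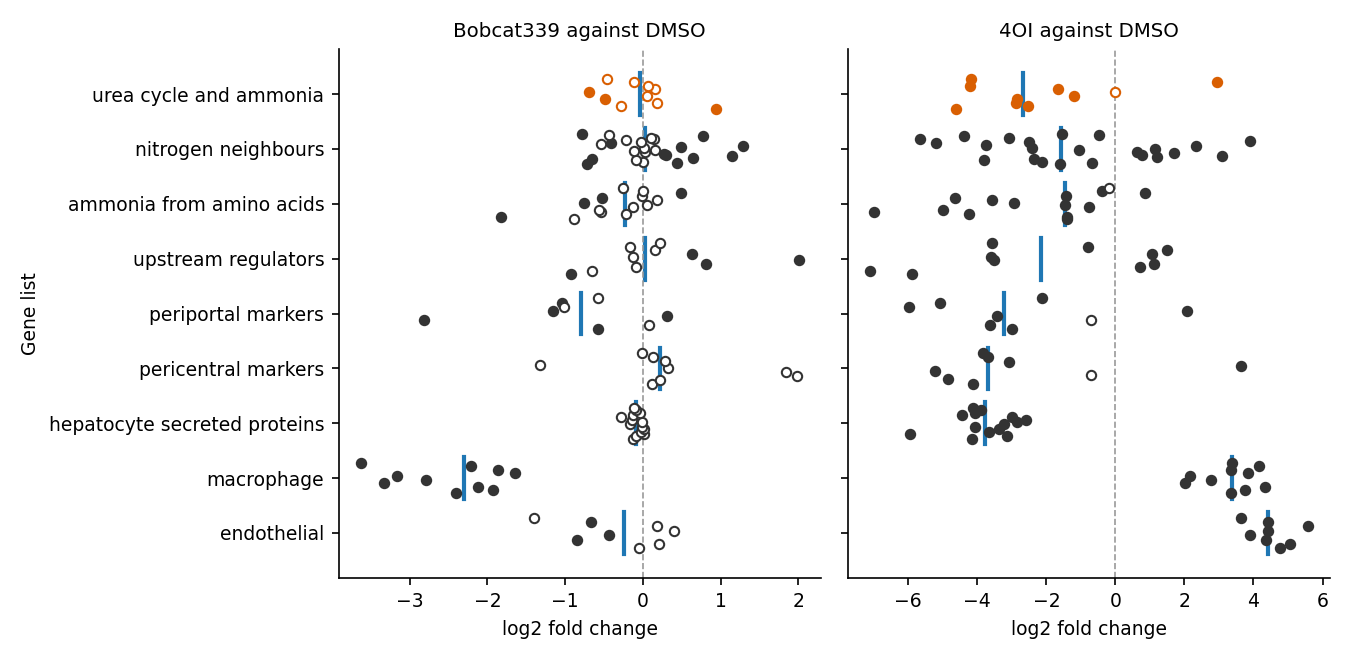
Log2 fold change of each tested gene of 9 lists against DMSO, with filled points for genes called at an adjusted p under 0.05, open points for the others, orange for the 10 urea cycle and ammonia handling genes and a blue bar at the median of a list. Genes at 0 counts in the 4OI group (Car5a and Lgr5) are not drawn in the 4OI panel, and enter its medians at their bound. The 14 secreted protein genes lie near 0 with Bobcat339 and between −5.96 and −2.58 with 4OI, and the macrophage and endothelial markers lie above 0 with 4OI.

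The genes whose levels followed Cps1, Arg1 and Glul most closely were found by Pearson's r of log2(CPM + 0.5) over the 9 libraries, among 9204 genes with a symbol and a mean of at least 10 CPM. The 9 libraries form 3 groups and share the scaling, so r is a description. Cps1 was most like Glyat, a glycine acyltransferase of liver (r = 0.999), Cldn1 (r = 0.999), a tight junction protein, and Gjb2 (r = 0.999), a gap junction protein. Arg1 was most like Pank2 (r = 0.953), Rnf144b (r = 0.950) and Agk (r = 0.950), which were at 43.7, 44.0 and 18.3 CPM with DMSO and, like Arg1, lower on average with Bobcat339 than in either other group. Glul was most like Col4a2, a chain of basement membrane collagen, Slc12a5, a chloride carrier, and Plxnd1, a semaphorin receptor of endothelium, each at r = 0.999. Col4a2 was at 95.8 CPM with DMSO, 84.8 with Bobcat339 and 702 with 4OI on average.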

How the data were processed

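RNA was sequenced from 9 libraries of primary mouse hepatocytes, 3 per group, grouped by the treatment label. In their processing notes the submitters listed featureCounts 1.5.0-p3, HISAT2 2.0.5 and CASAVA 1.8. Build and annotation: not given in the sources used here. A table was deposited by the authors, with whole numbers per gene that were read here as estimated counts made from aligned reads without scaling between libraries. Of values from 4 to 40, 43.7% to 45.6% were multiples of 4, against 27.0% if spread evenly. They may therefore not be direct counts of read pairs. Symbols, positions and exon lengths came from GENCODE M21 by gene ID (91.9% of genes matched). The use of strand in counting was not stated, so reads of overlapping antisense genes cannot be told apart.

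Counts were filtered with filterByExpr, scaled by TMM and fitted with edgeR 4.0.16 (R 4.3.3) in 1 model over 9 libraries, with Benjamini-Hochberg adjustment over 18379 genes. DESeq2 1.42.0, RLE scaling, library size scaling, unfiltered genes, genes with 1 CPM in at least 3 libraries, a fit of 6 libraries, a replicate block, counts divided by 4 and leaving out each library were alternatives. Single values were compared with exact permutation tests (SciPy 1.17.1). The fit was run on simulated data in which far fewer genes changed than with 4OI. Changes as wide as those with 4OI were therefore not simulated. No 2 libraries were duplicates by a chi-square test of their counts. The 10 genes and the lists were chosen with earlier results of these data known. The text names the 10 genes, each list's genes called with Bobcat339 (or the 2 highest where there was none), up to 4 called with 4OI at the smallest adjusted p, genes fixed by name, and the 3 genes most like Cps1, Arg1 and Glul. Slc25a12 was added after its values were seen. Some genes that this rule names are not reported here.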

Additional observations from a re-analysis of the deposited data

How the results depend on the processing

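The calls of the 10 genes did not change under any of the 17 alternatives in 4OI against DMSO and in 4OI against Bobcat339. With Bobcat339 against DMSO, Nags and Arg1 were called under all 17, and 162 of 170 values kept their call. Cps1 was also called with RLE scaling (log2 −0.34) and with DESeq2 (−0.32), and Gls2 with only the 6 libraries of the comparison (−0.46). Leaving out 1 library, the log2 values of Ass1 ran from −0.60 to −0.40, those of Gls2 from −0.53 to −0.39 and the number of the 10 genes called lower from 1 to 3. Setting levels against Alb alone moved every relative level by 0.39 and against the median of the list by −0.37 in 4OI against DMSO, with 7 of the 10 genes higher under both, but against Alb alone Nags and Slc25a13 were no longer apart from DMSO. Scaling by library size alone moved the median of all genes by 0.12 in 4OI against Bobcat339, and no call of the 10 genes with it. Over all genes tested, the deviations of same-numbered libraries were only weakly correlated (from −0.03 to 0.10, none above 0.1). Those of differently numbered libraries ran from −0.12 to 0.06, and the highest value was that of DMSO 3 with Bobcat339 3. The numbers were not taken to pair libraries, and a replicate block changed no call of the 10 genes. Nags and Gls2 in the 4OI libraries rest on the fewest counts of the 10 genes.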

Other observations

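In the DMSO group the 10 genes varied in 2 opposed sets, which were seen only in part with Bobcat339 and not with 4OI. In DMSO library 3, Nags, Ass1, Asl, Glul and Gls2 were at their lowest of the 3 DMSO libraries and the other 5 genes (Cps1, Otc, Arg1, Slc25a15 and Slc25a13) at their highest. In the Bobcat339 group the same 5 genes (Nags, Ass1, Asl, Glul and Gls2) were lowest in library 3 and highest in library 1. Of the other genes, Cps1, Arg1, Slc25a15 and Slc25a13 were lowest in Bobcat339 library 1 and Otc in library 2. In the 4OI group, library 3 was highest for 7 of the 10 genes, Otc and Slc25a13 among them. How many of all genes were highest or lowest in these libraries was not counted. The pattern therefore cannot be called particular to the 10 genes. No label names a difference between these libraries.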
